A study of Mus musculus with 6 samples.

Results

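The genes for epithelial antimicrobial proteins form a group of 10 in these data, named by function: *Reg3b*, *Reg3g*, *Reg4*, *Retnlb*, *Ang4*, *Lyz1*, *Itln1*, *Lypd8*, *Pigr* and *Il22ra1*. The group was chosen with earlier results of these data known. All 10 were found by gene symbol among the 27202 genes of the deposited table. RNA was sequenced from the colon of 3 *Nedd4l fl/fl VillinCre* mice and 3 *Nedd4l fl/fl* littermates, 8 to 10 weeks old, all of which had drunk 2% dextran sulfate sodium (DSS) for 7 days. DSS damages the lining of the colon, and no mouse without DSS was part of the comparison, so levels before injury are not known from these libraries. Both floxed and Cre lines were on a C57BL/6J background. Cre under the *Villin* promoter is active in the epithelium of the small and large intestine without induction, so *Nedd4l*, which encodes a ubiquitin ligase, was removed from intestinal epithelial cells (IECs) while other cells of the colon kept it. The labels name each library as a separate sample of its genotype and say nothing further on its source, so the spread between libraries can include technical spread.

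The colonic epithelium is covered by mucus, and its cells secrete proteins that bind or kill bacteria and so keep them away from the cell surface. C-type lectins of the Reg3 family, resistin-like molecule beta, angiogenin 4, lysozyme and intelectin are secreted by epithelial cells, goblet cells and Paneth cells of the small intestine among them. Lypd8 is released by colonocytes and binds flagella. IL-22 from lymphocytes acts on the epithelium through a receptor of *Il22ra1* and *Il10rb*, signals through STAT3 and induces several of these genes, *Reg3b* and *Reg3g* among them, and the polymeric immunoglobulin receptor encoded by *Pigr* carries IgA across the epithelium into the lumen.

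The promoters of *Reg3b*, *Reg3g* and *Ang4* are shown because the first pair rose and fell together from library to library and *Ang4* ran the other way. Each is the RefSeq window on GRCm38.p6 from 250 bases before to 50 bases after the transcription start, written 5′ to 3′ on the strand of the gene. Capitals mark a match to TTCNNNGAA, the letters of a STAT-type element, or to TATAAA, the core of a TATA box, searched on both strands, and no match overlaps another.
Reg3b, chr6:78370635-78370934, plus strand: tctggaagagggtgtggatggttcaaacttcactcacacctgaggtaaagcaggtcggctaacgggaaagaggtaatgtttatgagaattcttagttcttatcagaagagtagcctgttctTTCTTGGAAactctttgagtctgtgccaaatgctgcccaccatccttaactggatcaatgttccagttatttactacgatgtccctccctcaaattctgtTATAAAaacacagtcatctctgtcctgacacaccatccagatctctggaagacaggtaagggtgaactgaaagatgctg
Reg3g, chr6:78468825-78469124, minus strand: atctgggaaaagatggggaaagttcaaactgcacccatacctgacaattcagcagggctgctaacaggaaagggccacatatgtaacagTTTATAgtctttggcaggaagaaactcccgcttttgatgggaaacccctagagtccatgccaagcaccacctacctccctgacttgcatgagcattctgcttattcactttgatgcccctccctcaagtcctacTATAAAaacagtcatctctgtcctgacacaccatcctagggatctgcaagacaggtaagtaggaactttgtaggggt
Ang4, chr14:51773541-51773840, minus strand: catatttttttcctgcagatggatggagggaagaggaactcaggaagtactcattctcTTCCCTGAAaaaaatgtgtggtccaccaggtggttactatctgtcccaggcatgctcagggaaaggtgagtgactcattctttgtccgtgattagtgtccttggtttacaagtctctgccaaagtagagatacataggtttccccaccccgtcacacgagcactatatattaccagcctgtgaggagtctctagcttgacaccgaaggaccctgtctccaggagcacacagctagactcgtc
*Reg3b* held TTCNNNGAA from −129 to −121 and TATAAA from −29 to −24, counting from −1 at the last base before the start. *Reg3g* held TATAAA from −27 to −22 and on the other strand from −161 to −156. *Ang4* held TTCNNNGAA from −192 to −184. Of the 9 genes of the group with a RefSeq window, 3 held TTCNNNGAA (*Pigr* had it from 40 to 48 after the start) and 2 held TATAAA, against 8.3% and 13.6% of 32851 mouse promoters of the same length. The windows of *Reg3b* and *Reg3g* had 210 identical bases of 294 aligned (70% of the window), and the other pairs among these 2 windows and those of *Ang4*, *Reg4*, *Itln1*, *Lyz1* and *Pigr* had 47 to 56%. A match of letters is a description and does not show that a factor binds there. In the deposited table *Reg3b* starts at 78370657, upstream of the RefSeq start. Most of its window, with both marked matches, therefore lies inside the gene as listed.

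No member of the group differed between the genotypes at an adjusted p under 0.05. In limma over 16246 genes, 0 of the 10 were called, as were 0 of all genes tested (0%, with a smallest adjusted p of 0.111), and at an unadjusted p under 0.05 the counts were 0 of the 10 and 2273 of all genes (14%). The libraries of the genotypes overlapped for all 10 members, whereas 21.4% of all genes tested had no overlap. Of the 10, 6 had a higher fitted mean in *Nedd4l fl/fl VillinCre* mice and 4 a lower one, with a median log2 difference of 0.12, beside a median of 0.0013 over all genes tested. What the group did show was a wide spread between mice that carried the same genotype and the same treatment. The highest value of 6 members was in *Nedd4l fl/fl VillinCre* replicate 2, and the lowest value of 6 members was in *Nedd4l fl/fl VillinCre* replicate 1. The colon holds many cell types, and in bulk RNA fewer cells of a type cannot be told apart from less RNA per cell.

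**Figure D1:**
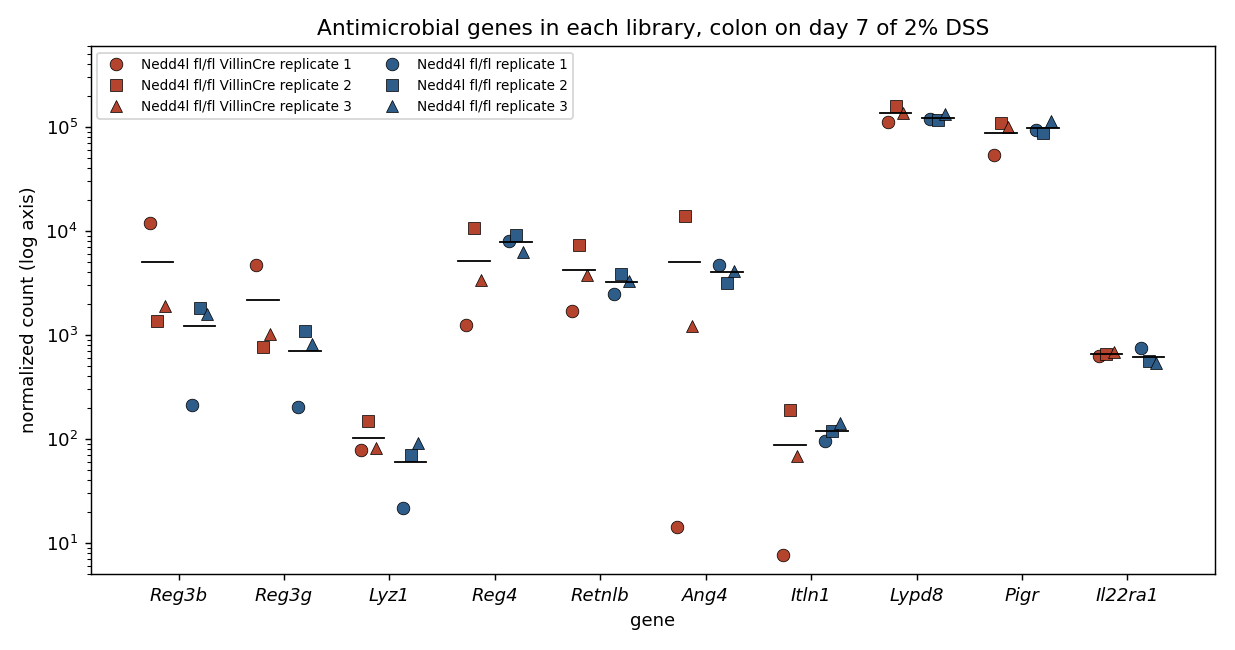
Normalized count (log axis) of the 10 genes in each of the 6 libraries, red for Nedd4l fl/fl VillinCre and blue for Nedd4l fl/fl, with a marker shape for each replicate and a line at each group mean. Ang4 runs from 14.4 to 13877 within Nedd4l fl/fl VillinCre mice, while the 6 values of Il22ra1 lie between 539 and 748, and no gene has its genotypes apart.

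Libraries were of similar size, with 14914367 to 17547270 in units of each library's smallest step of 0.90 to 1.11 normalized counts. *Nedd4l* itself was 476, 942 and 566 normalized counts in *Nedd4l fl/fl VillinCre* replicates 1, 2 and 3 and 1241 to 1271 in *Nedd4l fl/fl* mice, with no overlap and a log2 difference of −0.99 ± 0.24 (SE, adjusted p = 0.225 from limma). *Nedd4l fl/fl VillinCre* replicate 2 thus had the highest *Nedd4l* of its genotype. Over all genes its mean r was 0.977 with *Nedd4l fl/fl* libraries and 0.966 with its own genotype. Replicate 1 stood farthest from *Nedd4l fl/fl* mice (0.948). The own-genotype mean of replicate 2 covers only replicates 1 and 3, so a low r with replicate 1 can lower it. It does not show that replicate 2 was closer to *Nedd4l fl/fl* mice than to replicate 3. Values of the antimicrobial genes are therefore given per library, and with *Nedd4l fl/fl VillinCre* replicate 1 or 2 left out where that changed a result.

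*Reg3b* (ENSMUSG00000071356, chromosome 6, 78370657 to 78373466, plus strand, GRCm38) encodes a secreted C-type lectin that acts mainly on Gram-negative bacteria. Its normalized counts were 11785, 1372 and 1891 in *Nedd4l fl/fl VillinCre* mice and 213, 1826 and 1574 in their *Nedd4l fl/fl* littermates, in the order of replicates 1, 2 and 3 that all lists of values keep. One library of each genotype stood apart, high in *Nedd4l fl/fl VillinCre* replicate 1 and low in *Nedd4l fl/fl* replicate 1, and the other 4 libraries were within a narrow range in which the genotypes were mixed. The means were 5016 ± 5868 and 1204 ± 868 (SD, n = 3 each), and the log2 difference of 1.88 ± 1.18 (SE) had a 95% interval from −1.07 to 4.83 and an adjusted p of 0.507 in limma. It was 0.92 without *Nedd4l fl/fl VillinCre* replicate 1 and 0.88 without *Nedd4l fl/fl* replicate 1, so each of these libraries moved it by more than 1.5 times.

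*Reg3g* (ENSMUSG00000030017, chromosome 6, 78466269 to 78468872, minus strand) lies 92802 bases from *Reg3b* and encodes the lectin that binds peptidoglycan of Gram-positive bacteria. It had normalized counts of 4727, 771 and 1011 in *Nedd4l fl/fl VillinCre* mice and of 200.5, 1087 and 810 in their littermates. The same libraries were high and low as for *Reg3b*, and the genotypes overlapped. The log2 difference was 1.46 ± 0.94 (SE; 95% interval −0.89 to 3.81; adjusted p = 0.517 in limma), and it was 0.65 without *Nedd4l fl/fl VillinCre* replicate 1 and 0.72 without *Nedd4l fl/fl* replicate 1. With libraries weighted by their fit to the model (array weights), the log2 differences were 1.23 for *Reg3b* and 0.95 for *Reg3g*. In *Nedd4l fl/fl VillinCre* mice these weights lay mostly on replicate 3 (4.39, against 0.414 and 0.562 for replicates 1 and 2). Within each genotype the highest library exceeded the lowest 8.59-fold and 8.56-fold for *Reg3b* and 6.13-fold and 5.42-fold for *Reg3g*. This spread was wide in both genotypes, since the SD of log2 values stood at percentile 99.0 of all genes tested in *Nedd4l fl/fl VillinCre* and 99.8 in *Nedd4l fl/fl* mice for *Reg3b*, and at 98.4 and 99.2 for *Reg3g*. *Reg3a* and *Reg3d*, which lie in the same cluster on chromosome 6, were at most 8.63 and 5.75 normalized counts in any library and were not tested.

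*Reg4* (ENSMUSG00000027876, chromosome 3, 98222156 to 98236748, plus strand) encodes a related lectin made by goblet and enteroendocrine cells. Its normalized counts were 1237, 10672 and 3368 in *Nedd4l fl/fl VillinCre* mice and 7909, 9179 and 6330 in their littermates. Replicates 1 and 3 of *Nedd4l fl/fl VillinCre* mice lay below every *Nedd4l fl/fl* library and replicate 2 lay above them all. The fitted log2 difference was −1.12 ± 0.76 (SE; 95% interval −3.01 to 0.77; adjusted p = 0.534 in limma). It was −1.92 without *Nedd4l fl/fl VillinCre* replicate 2 (adjusted p = 0.165) and −0.36 without replicate 1.

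*Retnlb* (ENSMUSG00000022650, chromosome 16, 48816856 to 48818892, plus strand) encodes resistin-like molecule beta, a goblet cell product that damages bacterial membranes. It was 1703, 7297 and 3756 normalized counts in *Nedd4l fl/fl VillinCre* mice and 2464, 3836 and 3330 in their littermates. The *Nedd4l fl/fl* libraries all lay inside the range of the *Nedd4l fl/fl VillinCre* libraries, with replicate 1 at its lower and replicate 2 at its upper end. On the log2 scale the genotypes differed by 0.19 ± 0.53 (SE; 95% interval −1.13 to 1.51; adjusted p = 0.892 in limma), and the sign turned, to −0.32, without *Nedd4l fl/fl VillinCre* replicate 2. Of the other resistin-like genes, *Retnla* was 0, 52.0 and 1.03 normalized counts against 25.7, 8.10 and 25.0, and *Retnlg*, which neutrophils express, was 672, 11.1 and 60.9 against 19.8, 1.80 and 6.99 in replicates 1, 2 and 3 of the genotypes. Both overlapped between the genotypes (adjusted p = 0.580 and 0.405 in limma).

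*Ang4* (ENSMUSG00000060615, chromosome 14, 51763878 to 51773590, minus strand) encodes a ribonuclease of the angiogenin family with bactericidal activity. Its normalized counts were 14.4, 13877 and 1215 in *Nedd4l fl/fl VillinCre* mice, whereas *Nedd4l fl/fl* littermates had 4719, 3186 and 4120. The highest *Nedd4l fl/fl VillinCre* library exceeded the lowest 965-fold, against 1.48-fold in *Nedd4l fl/fl* mice, and the control mice lay within that range. The SD of the log2 values in *Nedd4l fl/fl VillinCre* mice was 4.97, which ranked 2 among the 16246 genes tested, and in *Nedd4l fl/fl* mice it was 0.29, at percentile 72.2. The means of 5035 ± 7680 and 4008 ± 773 (SD, n = 3 each) put *Nedd4l fl/fl VillinCre* mice higher, while the log2 difference of −2.63 ± 2.74 (SE; 95% interval −9.96 to 4.69; adjusted p = 0.693 in limma) put them lower. The sign of the log2 difference also hung on a single library, since it was 0.05 without *Nedd4l fl/fl VillinCre* replicate 1 and −4.86 without replicate 2. The gene shared 4.7% of its 50-base stretches with *Ang2* and *Ang5*, so a small part of its reads is uncertain. *Ang*, the family member with a role in vessel growth, was 115 to 243 normalized counts in the 6 libraries (log2 difference 0.13).

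*Itln1* (ENSMUSG00000038209, chromosome 1, 171518122 to 171535294, minus strand) encodes intelectin 1, a goblet cell lectin that binds sugars of microbial surfaces. It was 7.67, 188 and 69.1 normalized counts in *Nedd4l fl/fl VillinCre* mice and 94.8, 119.7 and 142 in their littermates. The order of the libraries was near that of *Ang4*, at a far lower level, with a 24.5-fold range in *Nedd4l fl/fl VillinCre* mice and a narrow one in littermates. The genotype difference on the log2 scale was −1.28 ± 1.11 (SE; 95% interval −4.03 to 1.47; adjusted p = 0.622 in limma). Without *Nedd4l fl/fl VillinCre* replicate 1 it was −0.04 and without replicate 2 it was −2.26.

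*Lyz1* (ENSMUSG00000069515, chromosome 10, 117287797 to 117292868, minus strand) encodes the lysozyme of Paneth cells, an enzyme that cuts the bacterial cell wall. Its normalized counts were 78.6, 149 and 81.5 in *Nedd4l fl/fl VillinCre* mice and 21.7, 69.3 and 90.9 in their littermates. Only *Nedd4l fl/fl VillinCre* replicate 2 exceeded every *Nedd4l fl/fl* library. The log2 difference was 0.92 ± 0.55 (SE; 95% interval −0.39 to 2.23; adjusted p = 0.476 in limma, the smallest of the group), and leaving out 1 library at a time gave 0.31 to 1.32. The neighboring *Lyz2*, the lysozyme of macrophages and neutrophils, holds 16.1% of the 50-base stretches of *Lyz1* and was far more abundant, at 5467, 5830 and 4727 against 4254, 2795 and 4081 normalized counts. *Lyz2* was higher in every *Nedd4l fl/fl VillinCre* library (log2 difference 0.54, adjusted p = 0.282 in limma), and how reads shared by both genes were counted is not given in the sources used here, so the level of *Lyz1* is uncertain. Of 9 other Paneth cell markers 2 were analysed here. *Mptx2* was at most 1.11 normalized counts, and *Mmp7*, which encodes a protease that activates defensins and is also made by injured epithelium, was 144, 36.5 and 193 against 1.98, 0 and 4.99.

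*Lypd8* (ENSMUSG00000013643, chromosome 11, 58379043 to 58390728, plus strand) encodes the colonocyte protein that binds flagellated bacteria. Its normalized counts were 111986, 159108 and 136851 in *Nedd4l fl/fl VillinCre* mice and 119209, 116113 and 133290 in their littermates. The libraries lay close together, and the gene alone took 0.721 to 0.965% of a library's total. The fitted log2 difference was 0.13 ± 0.14 (SE; 95% interval −0.18 to 0.45; adjusted p = 0.670 in limma), and its sign turned to −0.16 with quantile normalization. It was 0.27 without *Nedd4l fl/fl VillinCre* replicate 1 (adjusted p = 0.391 in limma) and 0.01 without replicate 2. The 95% interval from all 6 libraries was far narrower than those of the lectins and *Ang4*.

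*Pigr* (ENSMUSG00000026417, chromosome 1, 130826684 to 130852249, plus strand) encodes the IgA transporter, whose secreted part also protects IgA in the lumen. It had 54157, 109153 and 100562 normalized counts in *Nedd4l fl/fl VillinCre* mice and 94126, 87755 and 113184 in their littermates. Replicate 1 of *Nedd4l fl/fl VillinCre* mice was the only library below the narrow range of the other 5. On the log2 scale the genotypes differed by −0.22 ± 0.28 (SE; 95% interval −0.89 to 0.45; adjusted p = 0.739 in limma), and without that library the difference was 0.10.

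*Il22ra1* (ENSMUSG00000037157, chromosome 4, 135728172 to 135752140, plus strand) encodes the epithelial subunit of the IL-22 receptor. It was 633, 661 and 690.1 normalized counts in *Nedd4l fl/fl VillinCre* mice and 748, 567 and 539 in their littermates. Among *Nedd4l fl/fl VillinCre* mice it varied least of the 10 genes, and its libraries there all lay inside the range of the *Nedd4l fl/fl* libraries. The genotype difference on the log2 scale was 0.11 ± 0.13 (SE; 95% interval −0.20 to 0.42; adjusted p = 0.716 in limma), and the SD in *Nedd4l fl/fl VillinCre* mice stood at percentile 11.6 of all genes tested, whereas in *Nedd4l fl/fl* mice it stood at percentile 67.5. Leaving out a littermate moved the difference to 0.26 (replicate 1, adjusted p = 0.434 in limma), 0.06 (replicate 2) or 0.02 (replicate 3).

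**Figure D2:**
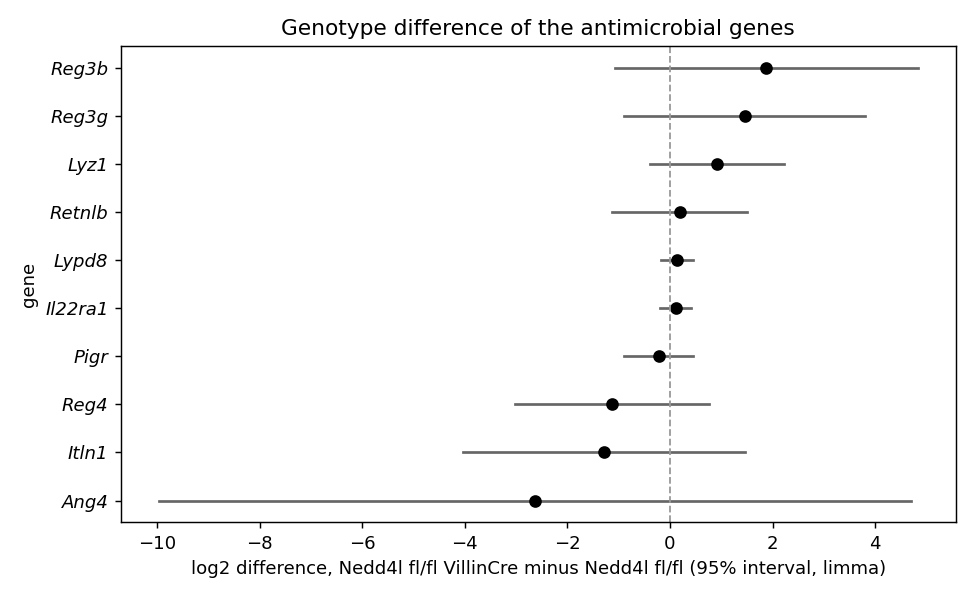
Log2 difference of each gene, Nedd4l fl/fl VillinCre minus Nedd4l fl/fl (points), with its 95% interval from limma (lines; n = 3 per genotype). Every interval includes 0; those of Lypd8 and Il22ra1 are narrow and that of Ang4 runs from −9.96 to 4.69.

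The exact permutation test over the 6 libraries, which with 3 against 3 cannot give a two-sided p below 0.1, gave 0.3 to 0.9 for the 10 genes. Leaving out 1 library at a time changed how many members had no overlap, and the share over all genes tested is given beside each count. Without *Nedd4l fl/fl VillinCre* replicate 2, *Reg3b* lay above and *Reg4*, *Ang4* and *Itln1* lay below all *Nedd4l fl/fl* libraries, which is 4 of 10 beside 37.6% of all genes tested. Without *Nedd4l fl/fl VillinCre* replicate 1 this held for *Lypd8* alone (above, beside 30.7%), without *Nedd4l fl/fl* replicate 1 for *Il22ra1* alone (above, beside 33%) and without *Nedd4l fl/fl* replicate 3 for *Lyz1* alone (above, beside 31.1%). It held for 0 members without *Nedd4l fl/fl VillinCre* replicate 3 (beside 29%) or *Nedd4l fl/fl* replicate 2 (beside 30.6%). At no setting tried did a member pass an adjusted p of 0.05.

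The spread between mice of 1 genotype was wide for most of the group. In *Nedd4l fl/fl VillinCre* mice the SD of log2(normalized count + 1) was 4.97 for *Ang4*, 2.27 for *Itln1*, 1.67 for *Reg3b*, 1.56 for *Reg4*, 1.41 for *Reg3g* and 1.05 for *Retnlb*, beside a median of 0.19 over all genes tested. These 6 genes stood at percentile 96.6 or above among all genes tested. In *Nedd4l fl/fl* mice *Ang4*, *Itln1*, *Reg4* and *Retnlb* had SDs of 0.27 to 0.33, and only *Reg3b* (1.73), *Reg3g* (1.30) and *Lyz1* (1.07) exceeded 1. The SD was larger in *Nedd4l fl/fl VillinCre* mice for 7 of the 10 members, beside 56.6% of all genes tested, and no test of a difference in spread was made with 3 mice per genotype. The gene with the widest spread of all in *Nedd4l fl/fl VillinCre* mice was *Mptx1*, a secreted pentraxin of the gut epithelium that was picked out after its values were seen. It followed *Ang4*, at 28.8, 50539 and 7023 normalized counts against 27056, 23194 and 30355 in *Nedd4l fl/fl* mice.

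**Figure D3:**
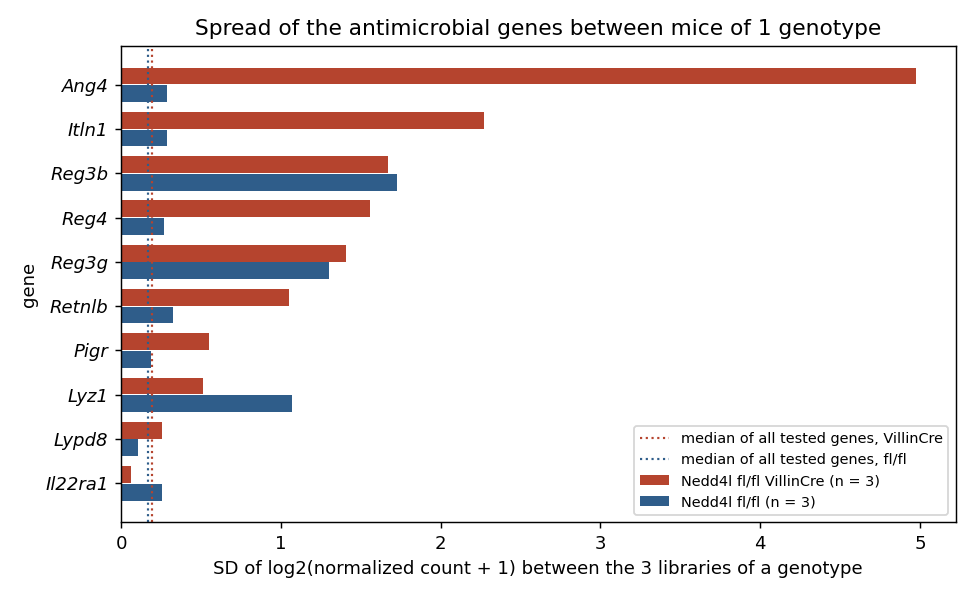
SD of log2(normalized count + 1) between the 3 libraries of each genotype for the 10 genes (bars), with dotted lines at the median SD of all genes tested, 0.19 in Nedd4l fl/fl VillinCre and 0.17 in Nedd4l fl/fl mice. Ang4, Itln1, Reg4 and Retnlb have long bars in Nedd4l fl/fl VillinCre mice only, and Reg3b and Reg3g have them in both genotypes.

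Per kilobase of gene model, *Lypd8* was the most abundant of the group in *Nedd4l fl/fl* mice, at 95694 ± 7130 normalized counts per kb (SD, n = 3). *Pigr* followed at 24436 ± 3287 and *Reg4* at 7645 ± 1398, both in normalized counts per kb. *Ang4* (5653 ± 1090 per kb) overlapped *Reg4* above it and *Retnlb* (4612 ± 997 per kb) below it. Next came *Reg3b* (1055 ± 760 per kb), *Reg3g* (331 ± 214 per kb) and *Il22ra1* (241 ± 44.1 per kb), of which each overlapped its neighbor, and then *Itln1* (104 ± 20.6 per kb) and *Lyz1* (48.0 ± 28.0 per kb), which were apart from each other and from *Il22ra1*. Every control library held more *Lypd8* per kb than any other member. In *Nedd4l fl/fl VillinCre* mice *Lypd8* (105905 ± 18359 per kb) was again above all others. *Pigr*, *Ang4*, *Retnlb*, *Reg4*, *Reg3b* and *Reg3g* followed in the order of their means, each overlapping the next. *Il22ra1* (257 ± 11.2 per kb) stood apart from *Reg3g* above and from *Lyz1* below, and *Lyz1* (81.6 ± 31.7 per kb) and *Itln1* (77.3 ± 80.3 per kb) overlapped.

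**Figure D4:**
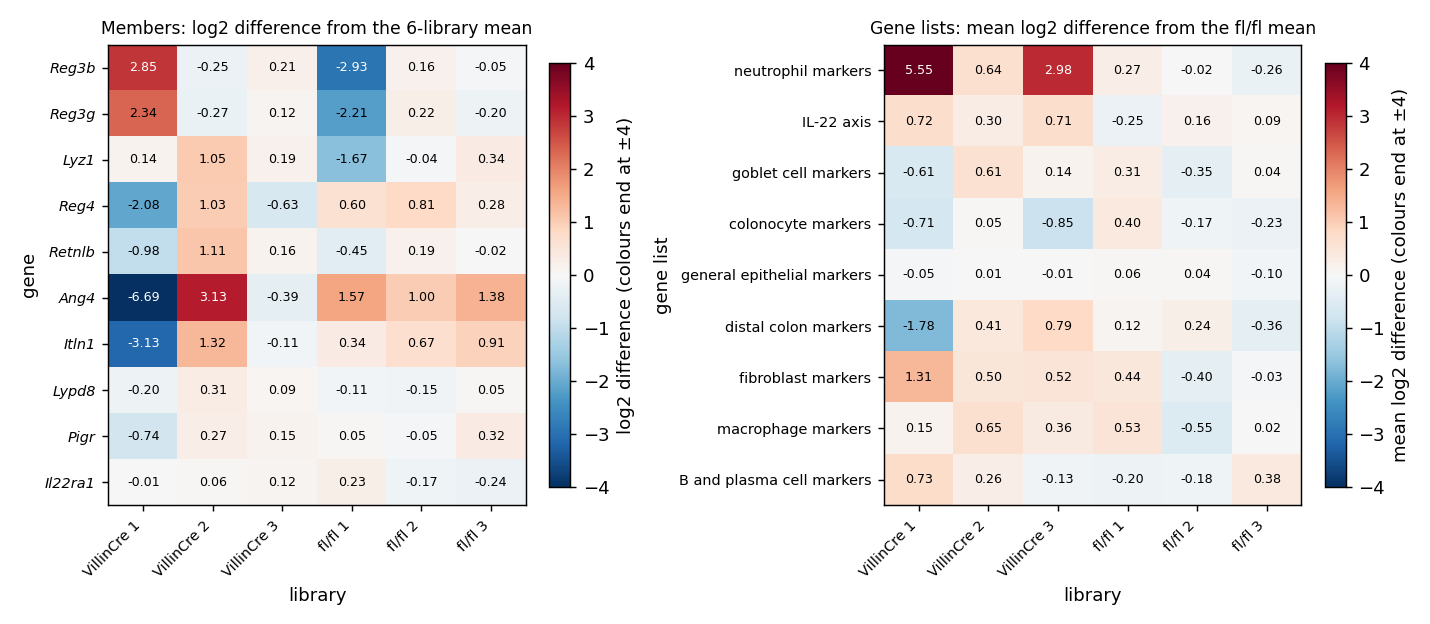
Left, log2 difference of each of the 10 genes in each library from its mean over the 6 libraries; right, mean log2 difference of 9 gene lists in each library from the Nedd4l fl/fl mean (colors end at ±4). In Nedd4l fl/fl VillinCre replicate 1 Reg3b is at 2.85 and Ang4 at −6.69 with neutrophil markers at 5.55, and in replicate 2 Reg3b is at −0.25 and Ang4 at 3.13 with neutrophil markers at 0.64.

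Across the 6 libraries the 10 genes fell into patterns that did not follow genotype. *Reg3b* and *Reg3g* had a Pearson r of 0.997 (exact two-sided permutation p = 0.00694, adjusted over 45 pairs 0.104) and a Spearman rho of 0.943 (permutation p = 0.0167, adjusted 0.375). Without the 2 libraries farthest from the median, *Nedd4l fl/fl VillinCre* replicate 1 and *Nedd4l fl/fl* replicate 1, r was 0.928. *Ang4* and *Itln1* had r = 0.989 (exact permutation p = 0.00556, adjusted 0.104) and rho = 0.829 (permutation p = 0.0583), and r was 0.757 without *Nedd4l fl/fl VillinCre* replicates 1 and 2. *Reg4* went with *Ang4* at r = 0.960, but r fell to 0.609 without *Nedd4l fl/fl VillinCre* replicates 1 and 3, so that much of this relation rested on them. *Reg3b* and *Ang4* ran against each other, with r = −0.769 (permutation p = 0.0819) and rho = −0.943 (permutation p = 0.0167, adjusted 0.375), and r was −0.939 without *Nedd4l fl/fl VillinCre* replicate 1 and *Nedd4l fl/fl* replicate 1. Of the 45 pairs, 6 had an unadjusted permutation p under 0.05 for r and 0 remained after adjustment, and all values are from the same 6 libraries. In the heat map by library the lectins *Reg3b* and *Reg3g* therefore sit opposite the goblet cell products *Ang4*, *Itln1*, *Reg4* and *Retnlb* in *Nedd4l fl/fl VillinCre* replicate 1.

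The genes most like each member over the 6 libraries were sought among 11879 protein-coding genes with a mean of at least 50, by Pearson r of log2 values, as a description. For *Reg3b* they were *Reg3g* (0.997), *Clcf1* (0.993), which encodes a cytokine of the IL-6 family, and *Zfp329* (0.992). For *Reg3g* they were *Reg3b*, *Zfp329* (0.996) and *Ap1m1* (0.991). For *Reg4* they included *Maged1* (0.995) and *Stard10* (0.992), and for *Ang4* they were *Atp9a* (0.999), *Cracr2a* (0.999) and *Ugt2b34* (0.997). *Itln1* was nearest to *Dhrs11* (0.999), *Sema5a* (0.998) and *Fam221a* (0.997). *Pigr* was nearest to *Gjb1*, *Rapgefl1* and *Med25* (0.997 to 0.998), *Retnlb* to *Pigf*, *Vipr1* and *Eya3* (0.992 to 0.995) and *Lyz1* to *Spns1*, *Bcl6* and *Prdx2* (0.982 to 0.993). *Lypd8* was nearest to *Hivep3*, *Atp5j2* and *Phf12* (0.977 to 0.987) and *Il22ra1* to *Chmp1a*, *Mtmr11* and *Prune2* (0.981 to 0.989). Except for *Reg3b* and *Reg3g*, no member was among the 3 genes nearest to another.

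Other antimicrobial and host defense genes were more often higher than lower in *Nedd4l fl/fl VillinCre* mice. Of 50 genes of this list 37 were analysed here and 30 tested, with 0 called by limma, 21 higher and 9 lower, a median of 0.36 on the log2 scale, and 8 higher and 1 lower at an unadjusted p under 0.05 (beside 6.91% and 7.08% of all genes tested). *Chil3*, a chitinase-like protein of myeloid cells, was 1002, 46.4 and 93.9 normalized counts against 10.9, 0.90 and 3.99, with no overlap (log2 difference 5.10, adjusted p = 0.257 in limma). *Slpi*, which encodes an antiprotease with antibacterial activity, was also above in every library (1241, 616 and 1382 against 553, 354 and 507, log2 difference 1.14, adjusted p = 0.292 in limma), and *Wfdc18* overlapped (log2 difference 1.10, adjusted p = 0.306). *Wfdc2*, a secreted antiprotease of epithelial cells, was below in every library, at 373, 1567 and 695 against 2024, 1930 and 2425 (log2 difference −1.51, adjusted p = 0.314 in limma). Of the 30, 7 lay above and 1 below all *Nedd4l fl/fl* libraries, beside 10.5% and 10.9% of all genes tested. The genes *S100a8*, *S100a9*, *Ngp*, *Retnlg* and *Camp* of this list are also neutrophil markers.

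IL-22 and the genes around its receptor were measured in the same libraries. *Il22* itself was low, with 15.3, 7.74 and 61.9 normalized counts in *Nedd4l fl/fl VillinCre* mice and 0, 18.9 and 6.99 in their littermates. The *Nedd4l fl/fl* library with no *Il22* was the one with the lowest *Reg3b* and *Reg3g*, but the library with the most *Il22* was not the one with the most of either lectin. *Il10rb*, the shared receptor subunit, was 828, 668 and 612 against 579, 630 and 566 (log2 difference 0.24, adjusted p = 0.423 in limma). *Il22ra2*, which encodes a soluble decoy receptor for IL-22, was below in every library, at 41.2, 49.8 and 45.4 against 60.2, 81.0 and 133 (log2 difference −0.92, adjusted p = 0.295 in limma). *Socs3*, a target and feedback inhibitor of STAT3, was above in every library at 3205, 1478 and 3100 against 514, 1223 and 623 (log2 difference 1.74, adjusted p = 0.264 in limma), and *Nedd4l fl/fl* replicate 1, lowest in both Reg3 lectins, was also lowest in *Socs3*. *Il1b*, which encodes an inflammatory cytokine, was above in every library (log2 difference 2.38, adjusted p = 0.211 in limma), as was *Il17ra*, the IL-17 receptor (0.36, adjusted p = 0.292). Of 24 genes of this list 18 were tested, 0 were called by limma (5 higher and 2 lower at an unadjusted p under 0.05), 13 were higher and 5 lower with a median of 0.19, and 6 lay above and 2 below all *Nedd4l fl/fl* libraries. Over all genes tested these shares were 6.91% and 7.08% at the unadjusted p and 10.5% and 10.9% without overlap.

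Genes of IgA and of *Pigr* regulation were measured next. All 14 of this list were tested, 0 were called by limma (4 higher and 0 lower at an unadjusted p under 0.05), 12 had a higher and 2 a lower mean (median log2 difference 0.17), and 4 lay above all *Nedd4l fl/fl* libraries, beside 6.91% of all genes tested higher at the unadjusted p and 10.5% above without overlap. Receptors and adaptors upstream of *Pigr* were among them: *Il4ra* (log2 difference 0.87, adjusted p = 0.282 in limma), *Ifngr2* (0.29, adjusted p = 0.257) and *Myd88* (0.30, adjusted p = 0.335) lay above in every library, as did *Mzb1*, a plasma cell gene (0.37, adjusted p = 0.379). *Tnfrsf1b* overlapped (0.62, adjusted p = 0.317 in limma). *Pigr* itself thus stayed within the range of the control mice in all libraries but replicate 1, and *Igha*, the IgA heavy chain that the receptor carries, was 142074 to 181803 in *Nedd4l fl/fl VillinCre* and 96002 to 183089 in *Nedd4l fl/fl* mice.

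Markers of cell types and colon segments moved with some of these genes, and their part in the results was not tested. All 14 general epithelial markers were tested and their mean log2 score stayed within −0.10 to 0.06 of the *Nedd4l fl/fl* mean in all 6 libraries. Their summed level was lowest in *Nedd4l fl/fl VillinCre* replicate 1, at 247868 normalized counts against 271620 to 291685 in the other libraries. Single markers moved both ways there, with *Hnf4a* at 11179 (14346 to 17824 elsewhere) and *Cldn4* at 1029 (276 to 732 elsewhere). Goblet cell markers (16 of 16 tested, 9 higher and 7 lower, median log2 difference 0.04) had scores of −0.61, 0.61 and 0.14 in *Nedd4l fl/fl VillinCre* replicates 1, 2 and 3 and of 0.31, −0.35 and 0.04 in *Nedd4l fl/fl* mice, with summed levels of 109530 to 477412 and 170755 to 335170 normalized counts. The score was lowest and highest in the same libraries as *Ang4*, *Itln1*, *Reg4* and *Retnlb*. Among *Nedd4l fl/fl* mice only *Ang4* kept the order of the score. There replicate 2 had the lowest score but the highest *Reg4* and *Retnlb*. Replicate 1 had the highest score but the lowest *Itln1* and *Retnlb*. Single markers ranged widely between *Nedd4l fl/fl VillinCre* libraries or little: *Clca1*, a secreted mucus protein, was 10947, 194396 and 55029 against 120797, 45849 and 78222, *Fcgbp*, another mucus protein, had a 5.46-fold range there, and *Muc2*, the gel-forming mucin, was 31745, 54736 and 47146 against 43651, 45639 and 46914. Distal colon markers (5 of 7 tested) had a score of −1.78 in *Nedd4l fl/fl VillinCre* replicate 1 and between −0.36 and 0.79 in the other 5 libraries. Their summed level was 4175 normalized counts in that library and 11255 to 17487 in the others, and *Hoxd13*, a gene of the most distal gut, was 17.3 there and 78.9 to 651 elsewhere. Of 10 neutrophil markers 9 were tested, with 8 higher and 1 lower and a median log2 difference of 3.36. At an unadjusted p under 0.05 in limma 4 were higher and 1 lower, beside 6.91% and 7.08% of all genes tested. They scored 5.55, 0.64 and 2.98 in *Nedd4l fl/fl VillinCre* mice, so that the library highest in *Reg3b* and *Reg3g* was also highest in neutrophil genes. This rested on that library. Replicate 3, at 2.98, had *Reg3b* at 1891, near the 1826 of *Nedd4l fl/fl* replicate 2 (score −0.02). *Nedd4l fl/fl* replicate 1, lowest in *Reg3b* (213), had the highest score of its genotype (0.27). Summed levels of the neutrophil markers were 3033 to 10520 against 2994 to 3254. *S100a9*, a defining neutrophil gene, was 2680, 27.6 and 348 normalized counts against 10.8 to 15.8 in *Nedd4l fl/fl* mice. With *S100a8* at 12.8 to 38.7 there, the summed level in *Nedd4l fl/fl* mice lay mostly in other genes of the list. The medians of fibroblast markers (0.88, 6 of 6 higher) and macrophage markers (0.30, 9 of 9 higher) were above 0 in *Nedd4l fl/fl VillinCre* mice, as was that of B and plasma cell markers (0.36, 7 of 7 higher), which was −0.031 with array weights and −0.02 without *Nedd4l fl/fl VillinCre* replicate 1. The macrophage median moved to 0.04 when littermate replicate 2 was left out and to 0.59 when littermate replicate 1 was. Colonocyte markers (14 tested) had 3 higher and 11 lower with a median of −0.43, and 1 of the 3 pancreatic and 2 of the 7 small intestine markers found reached the filter. Small intestine genes *Apoa4*, *Fabp1* and *Sis* were at most 2.88 normalized counts in any library.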

How the data were processed

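Colon RNA libraries had been prepared with a NEBNext Ultra kit. The submitters' processing notes name HISAT2 2.0.5, featureCounts 1.5.0-p3 and the build hg18, a human build, although 97.1% of genes, and all 10 members, have the same coordinates in GENCODE mouse release 21 (GRCm38). The strand setting is not given in the sources used here. The authors deposited normalized counts, a signal in which reads per gene are divided by 1 size factor per library. Columns with the authors' genotype means, fold changes and p-values were not used. Values were whole multiples of 1 step per library (tolerance 0.01), but no reads were derived from them and no count model was fitted. Values were taken as log2(value + 1), which understates changes of low genes, and genes with a mean of at least 10 were kept (16246). Genotypes were compared with lmFit and eBayes (trend, robust) of limma 3.58.1 in R 4.3.3 with Benjamini-Hochberg adjustment at 0.05. The script was checked on simulated data. Scores are means of log2 values minus the *Nedd4l fl/fl* mean. Genes named are all members, in 3 pathway lists the 5 with the smallest p, fixed relatives, up to 3 marker genes per list, and the 3 most correlated genes per member. Others were chosen after their values were seen. Some genes that this rule names are not reported here. Members and lists were chosen with earlier results of these data known. Promoter windows are from RefSeq, which gave none for *Retnlb*. Alternatives were other filters, pseudocounts, scalings, library weights, a replicate block and leaving out each library. Figures were drawn with matplotlib 3.10.9.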

Additional observations from a re-analysis of the deposited data

How the results depend on the processing

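Members past the threshold were 0 in all 14 alternatives. Of 140 member values 136 kept their direction, with adjusted p between 0.165 and 0.996 in limma. Other filters and the replicate block cannot change the log2 difference of a member, so their values had to keep direction. Direction turned for *Retnlb* without *Nedd4l fl/fl VillinCre* replicate 2 (−0.32, range −0.32 to 0.729 with 1 library left out), for *Ang4* (0.054, range −4.86 to 0.054) and *Pigr* (0.0996, range −0.406 to 0.0996) without *Nedd4l fl/fl VillinCre* replicate 1, and for *Lypd8* with quantile normalization (−0.164), and the cause was not tested. Genes called rose from 0 to 631 with array weights (262 higher, 369 lower). Those weights were 0.414, 0.562 and 4.39 for *Nedd4l fl/fl VillinCre* replicates 1, 2 and 3, so for this genotype that fit rested mostly on replicate 3. The count was 30 with no filter. It ranged from 0 to 122 with 1 library left out, 24 without *Nedd4l fl/fl VillinCre* replicate 1 and 122 without replicate 2. Members without overlap ranged from 0 to 4 in the same fits. Of 294 list medians 286 moved by less than their spread, and the replicate block could not move a median. Stem and crypt markers (−0.47 in the fit reported) gave −0.12 with array weights and −0.68 to −0.16 with 1 library left out. The Paneth cell list (5.28) rested on *Mmp7* alone, which injured epithelium also makes, so its value does not show more Paneth cells. It was 2.67 with no filter, which added *Mptx2*, and 3.22 with a pseudocount of 10. With 1 library left out, neutrophil markers (3.36) gave 1.82 to 5.34 and T cell markers (−0.042) −0.292 to 0.0614. B and plasma cell markers (0.36) gave −0.031 with array weights. Enteric neuron markers (−0.39, 4 genes) gave 0.77 from the 1 gene left at a mean of at least 50. Same-numbered libraries did not deviate together (r = −0.029, −0.090 and −0.056). This cannot exclude a pairing of the mice, on which the labels say nothing. A fit with the replicate as a block called 0 genes and gave *Reg3b* an adjusted p of 0.630 in limma. The log2 difference of 1.88 could not change in that fit, since each replicate number holds 1 library of each genotype. edgeR and DESeq2 were planned but not run, because whole reads were not recovered. No scaling moved the median of all genes by over 0.1. With 3 mice per genotype, the intervals of *Ang4* and *Itln1* leave large changes in either direction undetected. Those of *Reg3b* (−1.07 to 4.83) and *Reg3g* (−0.89 to 3.81) leave large increases undetected and reach less far below 0.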
